A study of Mus musculus with 6 samples.

Results

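The hippocampal interneuron identity genes described here are Pvalb, Lhx6, Reln, Ndnf, Nos1, Dlx1, Dlx6os1, Sox6 and Erbb4. They were taken from the expression table by symbol, which gave 10 of its 54532 genes for the 9 symbols, because Dlx6os1 names 2 entries. Hippocampal RNA of 3 wild-type (WT) mice and 3 TG mice was sequenced, and each library is named by genotype and replicate number (WT1, TG1 and so on). The TG mice carry the amino acid changes G82R and L85P in Slc1a2, the gene of the astrocytic glutamate transporter GLT-1, introduced into exon 3 by CRISPR/Cas9 in C57BL/6N mice. The WT mice were littermates, and neither age nor sex is given for the 6 libraries. The methods mention males and females among the variant mice and the controls, and do not say whether the animals used were heterozygous.

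Interneurons of the hippocampus are the inhibitory, GABA-releasing neurons that set the timing and the gain of the excitatory pyramidal and granule cells. They arise in the ganglionic eminences of the embryonic forebrain, where Dlx homeodomain factors start the GABAergic programme, and Lhx6 and Sox6 then act in the cells of the medial eminence. In the adult, their classes are told apart by what they make, such as the calcium-binding protein parvalbumin in fast-spiking basket cells, neuronal nitric oxide synthase in ivy and neurogliaform cells, and reelin and Ndnf in cells of the outermost layers. Loss or dysfunction of such cells is a long-standing theme in epilepsy research, and the variants carried by the TG mice come from patients with epilepsy.

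All 9 symbols were detected in every library, and none differed between TG and WT mice by more than the spread between mice. The largest differences were 0.26 ± 0.18 for Sox6 and -0.19 ± 0.13 for Dlx6os1 (log2 TG minus WT ± SE, n = 3 per group). The clearer pattern lay between libraries: in WT3 the short gene Pvalb was at its highest and Nos1, Lhx6, Sox6, Reln and Erbb4 were at their lowest. Values are FPKM, the reads of a gene scaled to its length and to the size of the library, which allows levels to be compared between genes.

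The promoters of the highest member, Pvalb, of Lhx6, which encodes a LIM-homeodomain factor, and of Dlx6os1, a long noncoding RNA made antisense to Dlx6, are shown because they illustrate how the start regions of these genes differ. Each line gives the 250 bases before a RefSeq transcription start (GRCm38.p6), 5′ to 3′ on the strand of the gene, with capitals for the core letters bound by many homeodomain proteins, which are TAATTA, or alternatively TAATTG with its reverse complement CAATTA. The windows are chr15:78206401-78206650 for Pvalb, chr2:36105409-36105658 for Lhx6 and chr6:6869534-6869783 for Dlx6os1, all on the minus strand.
Pvalb: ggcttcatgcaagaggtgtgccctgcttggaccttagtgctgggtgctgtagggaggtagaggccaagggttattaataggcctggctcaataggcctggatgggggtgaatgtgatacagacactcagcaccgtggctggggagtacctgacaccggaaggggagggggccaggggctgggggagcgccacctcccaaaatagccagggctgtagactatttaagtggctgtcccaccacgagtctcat
Lhx6: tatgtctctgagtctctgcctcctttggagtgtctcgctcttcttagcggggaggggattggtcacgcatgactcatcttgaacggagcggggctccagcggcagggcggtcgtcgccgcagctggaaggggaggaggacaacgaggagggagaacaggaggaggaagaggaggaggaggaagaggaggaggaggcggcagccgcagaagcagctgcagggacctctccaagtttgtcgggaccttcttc
Dlx6os1: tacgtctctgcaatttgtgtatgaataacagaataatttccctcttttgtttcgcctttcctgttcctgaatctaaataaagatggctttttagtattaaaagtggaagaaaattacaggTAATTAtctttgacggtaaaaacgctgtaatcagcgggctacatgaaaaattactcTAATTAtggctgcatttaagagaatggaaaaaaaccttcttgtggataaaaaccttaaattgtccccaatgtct
The Dlx6os1 window holds 2 matches to TAATTA, and the Pvalb and Lhx6 windows shown hold none. The Dlx6os1 window lies inside the annotated span of its gene, which has transcripts that start further upstream. RefSeq promoters were matched for 8 of the 9 symbols, all but Ndnf, with 17 windows of 300 bases in all (250 before the start and 50 after it). These letters, searched on both strands with overlapping matches counted separately, occurred in 3 of these 17 windows, 1 of Lhx6 and both of Dlx6os1, and in 12.4% of all 32851 windows of the same length. These are letter matches and not measured binding sites.

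The libraries held 16081281 to 18751057 reads on genes, and 20952 genes that averaged 0.1 FPKM or more were tested. All 12 genes listed for hippocampal excitatory neurons averaged 1 FPKM or more, and their sum was 1000.2 to 1160.4 in WT and 1068 to 1224 in TG mice. Camk2a (mean 509 FPKM in WT, 556 in TG) and Slc17a7 (274 and 292) weighed most in this sum. Of the 12, 7 were lower in TG mice and 5 higher, with a median log2 difference of -0.08. They ran from -0.45 for Tdo2 and -0.31 for Calb1 to 0.21 for Wfs1, and 0 passed an adjusted p of 0.05 in limma. At an unadjusted p of 0.05, 2 of the 12 were called, Tdo2 and Calb1, both lower in TG mice. Over all genes tested, 2.78% were called lower at that threshold. Without WT3 the differences were -0.33 for Tdo2 and -0.19 for Calb1. Slc1a2 itself had a mean of 193 FPKM in WT and 215 in TG mice (log2 difference 0.16, adjusted p = 0.789), and the amino acid changes cannot be read from gene levels. The 10 choroid plexus genes listed summed to 1214 FPKM in TG1 and 3840 in TG2, against 57.8 to 82.3 in the other 4 libraries. WT3 and TG1 stood apart in a way that went with gene length. Among 13325 genes that averaged 1 FPKM or more, the median deviation of WT3 from the 6-library mean (log2) ran from 0.22 for genes under 1 kb to -0.28 for genes of 16 kb and over. TG1 ran the opposite way, from -0.19 to 0.12, and the other libraries stayed between -0.05 and 0.08. Differences of interneuron genes that leaving out WT3 moved by over 1.5 times, or turned, are therefore also given without it.

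**Figure D1:**
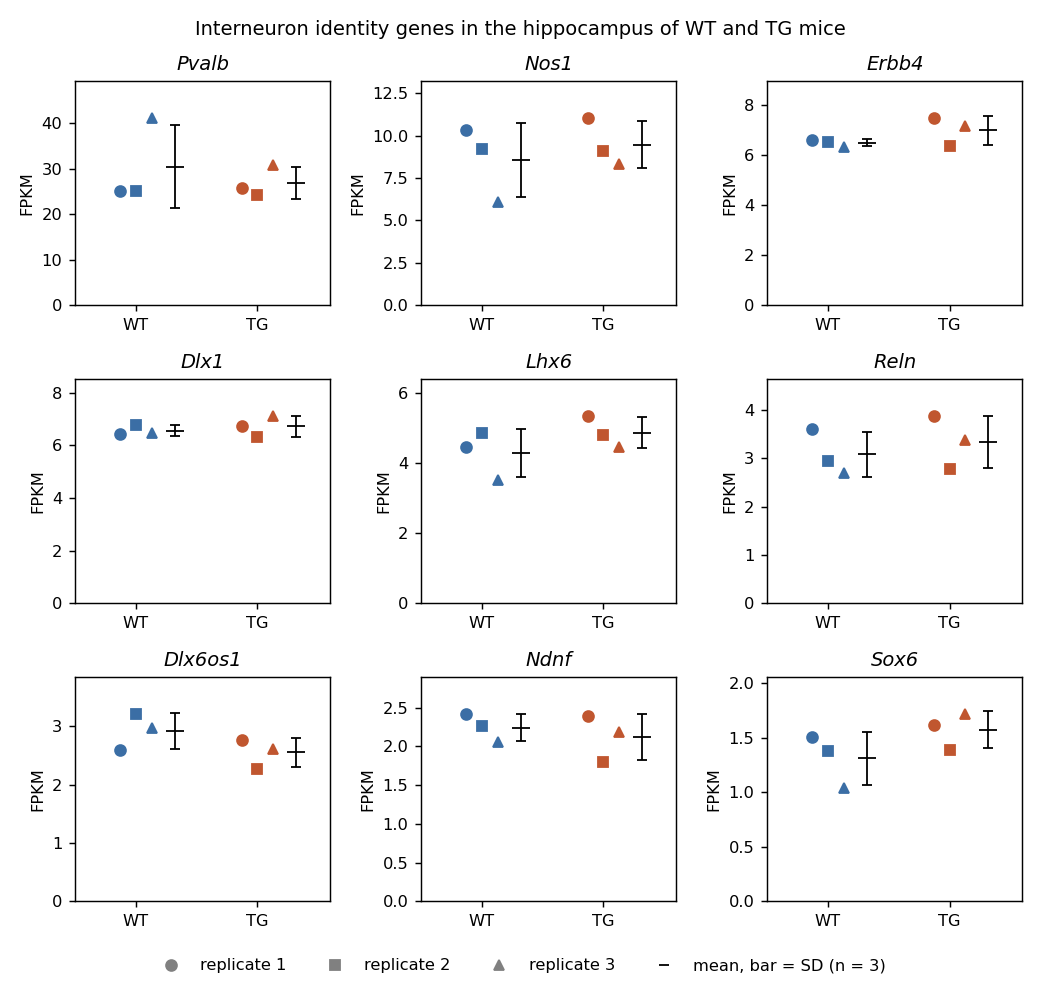
FPKM of each interneuron identity gene in every library, with the mean and SD of 3 mice per genotype beside the points (linear axes from 0). The WT and TG points overlap in all 9 panels, and WT3 (blue triangle) is the highest point for Pvalb and the lowest for Nos1, Lhx6 and Sox6.

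The transcription factors are the genes that give these cells their fate. Dlx1, a homeodomain factor of GABAergic neurons, stood at 6.42, 6.79 and 6.45 FPKM in the WT mice, in the order of their replicate numbers, and at 6.73, 6.33 and 7.10 FPKM in the TG mice. It was the steadiest member, with 1.12 times between its highest and lowest library, and the TG mice lay on both sides of the WT mice. Its log2 difference was 0.03 with a 95% confidence interval from -0.15 to 0.22 (limma, adjusted p = 0.923), so folds outside 0.900 to 1.17 lay beyond the interval. Dlx1 is at 2:71528113-71533981 (GRCm38, plus strand, ENSMUSG00000041911), and 335 of its 5396 exonic bases also belong to Dlx1as on the opposite strand. Dlx1as itself measured 1.05 to 1.48 FPKM in WT and 1.36 to 1.56 FPKM in TG mice (log2 difference 0.22, adjusted p = 0.789), and whether the counting used strand is not stated.

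Lhx6, which acts in interneurons of the medial ganglionic eminence and is kept in adult parvalbumin and somatostatin cells, measured 4.48, 4.87 and 3.52 FPKM in WT and 5.34, 4.81 and 4.46 FPKM in TG mice. WT3 was the lowest library and TG1 the highest. The log2 difference of Lhx6 was 0.19 (95% interval -0.14 to 0.51, adjusted p = 0.789), and without WT3 it was 0.05. Sox6, a factor of the same lineage that acts downstream of Lhx6, was the lowest member, at 1.51, 1.38 and 1.04 FPKM in WT and 1.62, 1.39 and 1.71 FPKM in TG mice. WT3 was again the lowest, and TG2 lay within the WT range. The log2 difference of Sox6 was 0.26 (interval -0.16 to 0.67, adjusted p = 0.789), and 0.11 without WT3. Sox6 is also used by oligodendrocyte precursors, whose 8 listed marker genes, all averaging 1 FPKM or more, summed to 102 to 106 FPKM in WT and 94.8 to 97.3 FPKM in TG mice. More than any other, Olig1, a gene of the whole oligodendrocyte lineage, made up this sum (51.7 to 64.2 FPKM in WT, 51.6 to 51.8 in TG). Of the 8 genes, 5 were lower in TG mice and 3 higher, with a median log2 difference of -0.05. The lower ones were Olig2 (-0.17), Sox10 (-0.17), Olig1 (-0.15), Neu4 (-0.10) and Pdgfra (-0.00515). The higher ones were Vcan (0.01), Cspg4 (0.10) and Gpr17 (0.42), and the adjusted p was 0.786 for both Olig2 and Gpr17. Lhx6 (ENSMUSG00000026890) lies at 2:36081953-36105408 and Sox6 (ENSMUSG00000051910) at 7:115470872-116038796, both on the minus strand.

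Dlx6os1, also known as Evf2, is a noncoding RNA that takes part in the control of the Dlx5 and Dlx6 genes beside it. Its main entry (ENSMUSG00000090063, 6:6820189-6871592, minus strand) stood at 2.59, 3.21 and 2.97 FPKM in WT and at 2.77, 2.28 and 2.61 FPKM in TG mice. TG2 and WT2 were the ends of the range, and TG1 and TG3 lay above WT1. Its log2 difference was -0.19 (interval -0.49 to 0.11, adjusted p = 0.789), the smallest unadjusted p of the 9 members, which lay at the 23.1 percentile of those of all genes. The second entry of that symbol (ENSMUSG00000098326, 146 bases, of which 104 are shared with the main entry) was listed at 0 in all 6 libraries and was not tested. Dlx6, which lies within the span of Dlx6os1 on the opposite strand and shares 0 of its exonic bases, measured 1.16, 1.36 and 1.91 FPKM in WT and 1.09, 0.963 and 1.12 FPKM in TG mice. All TG values of Dlx6 were below all WT values, and its log2 difference of -0.42 had an adjusted p of 0.788. WT3 carried much of it, and without WT3 the difference of Dlx6 was -0.23.

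Pvalb, which encodes the calcium buffer of fast-spiking basket cells, was the most abundant member, at 25.2, 25.2 and 41.0 FPKM in WT and 25.7, 24.2 and 30.7 FPKM in TG mice. WT3 stood 1.70 times above the lowest library, while WT1, WT2, TG1 and TG2 lay close together. The log2 difference of Pvalb was -0.15 (interval -0.61 to 0.31, adjusted p = 0.857), and it turned to 0.08 without WT3. With the choroid plexus level as a covariate it was 0.09. The interval allows folds from 0.654 to 1.24, the widest range on the lower side among the members. Pvalb (ENSMUSG00000005716, 15:78191114-78206400, minus strand) has 1041 exonic bases and 424 to 800 reads per library, and its CV among WT mice of 30.0% compares with a counting error of 4.36%.

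Nos1, neuronal nitric oxide synthase, makes the gas messenger nitric oxide and marks ivy and neurogliaform cells. It measured 10.3, 9.22 and 6.12 FPKM in WT and 11.0, 9.07 and 8.33 FPKM in TG mice, so that WT3 was the lowest library and TG1 the highest. The highest and lowest libraries differed 1.80 times, the widest span of any member. The log2 difference of Nos1 was 0.17 (interval -0.30 to 0.64, adjusted p = 0.839), and it was -0.05 without WT3. Nos1 (ENSMUSG00000029361) lies at 5:117781032-117958840 on the plus strand and had 1277 to 2128 reads per library. It shares 268 exonic bases with Gm26995 on the opposite strand, which stayed at or below 0.242 FPKM.

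The secreted members are Reln and Ndnf. Reelin guides the layering of neurons in development and is made in the adult hippocampus by interneurons and by the remaining Cajal-Retzius cells. Reln stood at 3.59, 2.94 and 2.69 FPKM in WT and 3.86, 2.78 and 3.37 FPKM in TG mice, with WT3 lowest, TG1 highest, and TG2 and TG3 within the WT range. Its log2 difference was 0.11 (interval -0.26 to 0.48, adjusted p = 0.866), 0.02 without WT3 and 0.00341 without TG1. The 6 listed Cajal-Retzius genes summed to 3.46 to 5.34 FPKM in WT and 4.44 to 5.13 FPKM in TG mice, with Trp73 at 0.620 to 1.24 FPKM over the 6 libraries and Lhx1 and Lhx5 with means under 0.1, and their part in the level of Reln was not tested. The gene (ENSMUSG00000042453, 5:21884454-22344702, minus strand) is the longest member, with 23738 exonic bases.

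Ndnf, a secreted neurotrophic factor and a marker of neurogliaform cells, was at 2.41, 2.26 and 2.05 FPKM in WT and 2.39, 1.80 and 2.18 FPKM in TG mice. TG2 was the lowest library, and TG1 and TG3 lay within the WT range. The log2 difference of Ndnf was -0.08 (interval -0.41 to 0.25, adjusted p = 0.894), and it was -0.14 without WT3 and turned to 0.03 without TG2 and to 0.01 with the choroid plexus covariate. Ndnf (ENSMUSG00000049001) is at 6:65671590-65712326 on the plus strand.

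Erbb4, the receptor tyrosine kinase for neuregulins, is concentrated in cortical and hippocampal interneurons, where it regulates the synapses they receive and make. It measured 6.59, 6.52 and 6.33 FPKM in WT and 7.45, 6.33 and 7.13 FPKM in TG mice. TG1 and TG3 lay above all WT mice, while TG2 was level with WT3, the lowest. The WT mice were close together, with a CV of 2.07%, below the 2.62% expected from counting alone, and the TG mice had a CV of 8.26%. The log2 difference of Erbb4 was 0.10 (interval -0.10 to 0.30, adjusted p = 0.789). It was 0.08 without WT3, 0.05 without TG1, 0.17 without TG2 and 0.02 under the gene length correction described below. Erbb4 (ENSMUSG00000062209) spans 1:68032186-69108059 on the minus strand.

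Of the 9 members, 6 had a higher mean log2 level in TG mice and 3 a lower one, and none passed an unadjusted p of 0.05 or an adjusted p of 0.05 in limma. Over all genes tested, 5.91% passed the unadjusted threshold (3.13% higher and 2.78% lower in TG mice) and 0.00955% the adjusted one. The split of 656 higher and 582 lower depended on the scaling, with 731 and 447 on the TPM scale, 813 and 490 in limma-voom, and 601 and 696 after quantile normalization. Limma-voom on the recovered reads also gave 0 of 9 at an unadjusted p of 0.05. The groups overlapped for all 9 members, whereas they did not overlap for 12.1% of all genes tested. The median log2 difference of the members was 0.10, against -0.00197 over all genes, and it was 0.02 without WT3, 0.03 without TG1 and 0.00783 under the gene length correction described below. A p above the threshold does not show equal levels: the upper bounds of the intervals reach a fold of 1.59 for Sox6 and 1.56 for Nos1. In bulk tissue, fewer cells of a class and less RNA per cell cannot be told apart.

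**Figure D2:**
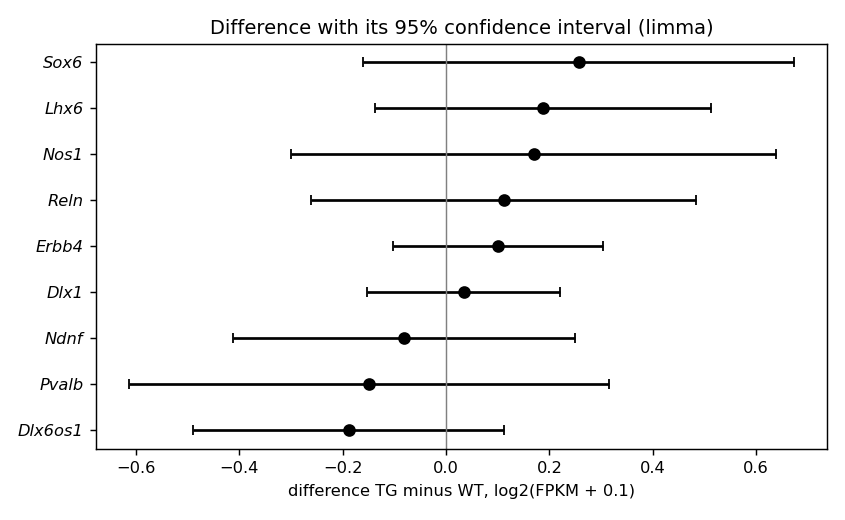
Log2 difference TG minus WT of each interneuron identity gene (points) with its 95% confidence interval from limma (bars), on the log2(FPKM + 0.1) scale. All 9 intervals cross 0, from Sox6 at 0.26 to Dlx6os1 at -0.19.

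Ordered by mean FPKM over the 6 libraries, Pvalb (28.7) stood above Nos1 (9.01), Erbb4 (6.72), Dlx1 (6.64), Lhx6 (4.58), Reln (3.21), Dlx6os1 (2.74), Ndnf (2.18) and Sox6 (1.44). Pvalb exceeded Nos1 in all 6 libraries, and Lhx6 exceeded Reln in all 6. Erbb4 and Dlx1 changed places between libraries, with Erbb4 higher in 4 of 6, and Reln was above Dlx6os1 in 4 of 6, so these neighbours did not differ beyond their spread. Nos1 was above Erbb4 in 5 of 6 libraries, WT3 being the exception.

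How the members varied between single libraries went in part with gene length. Across the 9 members, the log2 deviation from the 6-library mean correlated with log10 gene length at r = -0.76 in WT3, 0.81 in TG1 and 0.80 in WT1, and between 0.04 and 0.18 in the other 3 libraries. These are correlations across genes that share a library, so no p is given. Pvalb, with 1041 exonic bases against 4805 in the next shortest member, Lhx6, stood alone at the short end and weighed heavily in them. The r without Pvalb was not computed. Members of similar length differed, since Lhx6, Dlx6os1 (5173 bases) and Dlx1 (5396) stood at -0.36, 0.12 and -0.04 in WT3. Over 13325 genes, the same r was -0.22 in WT3, 0.29 in TG1 and 0.07 in WT1. In WT3, Pvalb stood 0.54 above its own mean, while Nos1 was 0.53, Sox6 0.42, Lhx6 0.36 and Reln 0.23 below theirs. In TG1, 8 of 9 members were above their mean, and the exception was the shortest, Pvalb. A correction of each library for its trend with gene length, chosen after seeing the data, changed the WT3 deviations from 0.54 to 0.40 for Pvalb, from -0.53 to -0.37 for Nos1, from -0.42 to -0.22 for Sox6 and from -0.23 to 0.05 for Reln. That of Lhx6 moved little, from -0.36 to -0.33. WT3 was the highest library for 31.7% and the lowest for 27.0% of the 13325 genes.

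**Figure D3:**
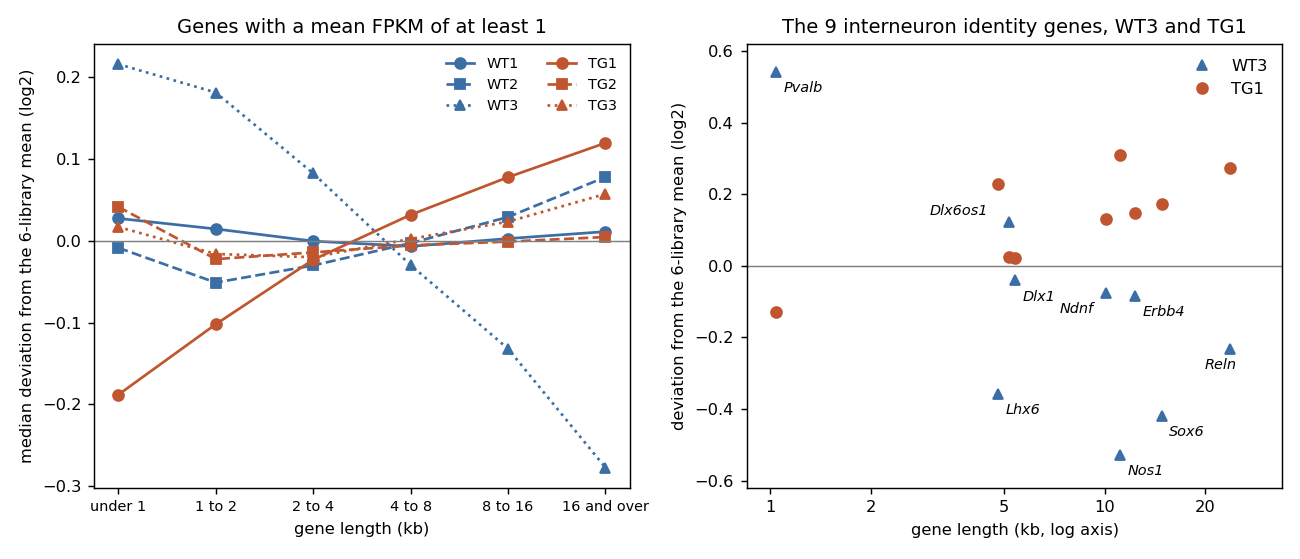
Left, median log2 deviation of each library from the 6-library mean in bins of gene length, over genes averaging 1 FPKM or more, where WT3 falls from 0.22 to -0.28 and TG1 rises from -0.19 to 0.12. Right, the deviations of the 9 interneuron identity genes in WT3 (triangles, labelled by gene) and TG1 (circles at the same length) against gene length on a log axis, with Pvalb, the shortest, at 0.54 in WT3 and -0.13 in TG1.

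The members were also set against the genes that all GABAergic neurons need, by subtracting the mean log2 level of Gad1, Gad2 and Slc32a1 in the same library. Gad1 and Gad2 make GABA and Slc32a1 loads it into vesicles. The log2 ratio of Dlx6os1 to this mean was -3.55, -3.20 and -3.46 in WT and -3.64, -3.65 and -3.57 in TG mice. All 3 TG values were below all 3 WT values, with a difference of -0.22, although TG3 and WT1 were only just apart. On this scale the TG mice lay wholly below the WT mice for 1 of the 9 members and for 5.37% of all genes tested (1126 of 20952). They lay wholly above the WT mice for a further 605 genes. For the other 8 members the groups overlapped, with differences from -0.18 for Pvalb to 0.23 for Sox6. Both ends rested on WT3, and without it Pvalb differed by 0.01 and Sox6 by 0.04, while Dlx6os1 differed by -0.24. Ndnf moved from -0.11 to -0.21 without WT3, close to Dlx6os1, and Erbb4 from 0.07 to 0.01. Nos1 (0.14 to -0.12), Lhx6 (0.16 to -0.02), Reln (0.08 to -0.05) and Dlx1 (0.00622 to -0.05) turned.

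Beyond the 9 members, 46 further interneuron genes were tested in 6 lists, and Chodl fell below the filter. Of these, 24 were higher and 22 lower in TG mice, with a median log2 difference of 0.00679 (28, 18 and 0.04 without WT3). At an unadjusted p of 0.05, 2 of the 46 passed, both higher, against 5.91% of all genes tested (3.13% higher). None passed the adjusted threshold. The groups did not overlap for 3 of the 46 that were higher and 2 that were lower, against 12.1% of all genes tested. The 4 genes of the list of GABA synthesis and release lay between -0.00129 (Gad1, which was at 0.06 without WT3) and 0.06. Among them Slc32a1, the vesicular GABA transporter, had the smallest p (26.7 ± 1.42 FPKM in WT, 28.0 ± 3.05 in TG, SD, log2 difference 0.06, adjusted p = 0.871, and 0.10 without WT3). The 12 transcription factors had a median of 0.07. Prox1, of interneurons from the caudal eminence and of granule cells, was the most abundant factor (log2 difference -0.09, and -0.17 without WT3).

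The parvalbumin-type list without Pvalb itself held 7 genes with a median log2 difference of 0.04 (0.07 without WT3), and none passed the unadjusted threshold. Gpr176, an orphan receptor, was higher in every TG mouse (4.01 ± 0.256 FPKM in WT, 4.55 ± 0.134 in TG, SD), with a log2 difference of 0.18 and an adjusted p of 0.788. Cplx1, a regulator of vesicle release and the most abundant gene of the list, differed by 0.01, and by 0.09 without WT3. The 8 somatostatin-type genes had a median of -0.00894, which turned to 0.02 without WT3. The neuropeptide gene Sst itself averaged 292 ± 55.1 FPKM in WT and 290 ± 27.8 FPKM in TG mice. Crhbp, the binding protein of corticotropin-releasing hormone, had the smallest p of that list (log2 difference 0.14, adjusted p = 0.789, and 0.23 without WT3). Sst was highest in WT3 (356 FPKM), as Pvalb was, and its log2 difference was -0.00106 with WT3 and 0.15 without it. The 6 genes of neurogliaform and ivy cells had a median of -0.03, which turned to 0.00148 without WT3. Among them the chemokine gene Cxcl14 had both the smallest p and the highest level (log2 difference 0.11, adjusted p = 0.789, and 0.16 without WT3).

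Of the 9 VIP- and CCK-type genes, 7 were lower in TG mice and 2 higher, with a median of -0.15, but without WT3 the split was 5 lower and 4 higher with a median of -0.09. Cck, a neuropeptide gene that pyramidal cells also express, averaged 255 ± 63.8 FPKM in WT and 227 ± 9.95 FPKM in TG mice (log2 difference -0.14), and WT3 at 328 FPKM set the WT mean apart from the 211 to 226 FPKM of the other WT mice. Without WT3 the difference of Cck turned to 0.06. Crh, the corticotropin-releasing hormone gene, stood at 1.11, 1.08 and 1.17 FPKM in WT and 1.91, 1.69 and 2.06 FPKM in TG mice. All TG values of Crh were higher, with a log2 difference of 0.70 (interval 0.38 to 1.02, adjusted p = 0.750), and 0.73 without WT3. WT3 was the highest library for 5 of the 12 further interneuron genes under 2 kb and 9 of the 16 between 2 and 4 kb, but for 1 of the 18 of 4 kb and over, where TG1 was the highest for 12.

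**Figure D4:**
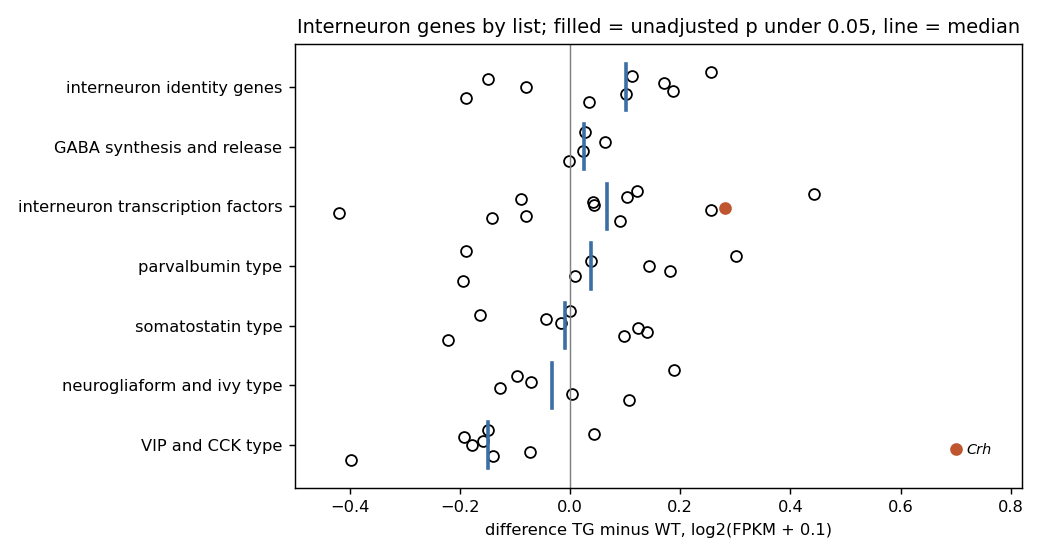
Log2 difference TG minus WT of each interneuron gene tested (circles), by list, with the median of each list (vertical line), where filled circles passed an unadjusted p of 0.05. Crh at 0.70 is the filled circle furthest to the right, and the medians lie between -0.15 for the VIP- and CCK-type genes and 0.10 for the identity genes.

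Genes of neighbouring regions were summed as well, because GABAergic neurons of the striatum and septum use Dlx and Lhx factors too. The 9 striatal genes summed to 30.6 to 33.1 FPKM in WT and to 36.7, 41.1 and 32.8 FPKM in the TG mice. Ppp1r1b alone gave 15.7 to 18.4 FPKM of this in WT and 20.6, 27.3 and 16.8 FPKM in TG mice, while 5 of the 9 genes were lower in TG mice, Drd1 (-0.21), Drd2 (-0.05) and Adora2a (-0.22) among them, and the median log2 difference was -0.05. The 7 septal genes summed to 8.38 to 12.6 FPKM in WT and 9.18 to 10.4 FPKM in TG mice, and 4 of them had a mean under 0.1. The 3 tested had a median log2 difference of 0.17, which turned to -0.12 without WT3. The 8 neocortical genes summed to 47.0 to 49.4 FPKM in WT and 45.8 to 57.3 FPKM in TG mice. Of these 8, 6 were higher in TG mice and 2 lower, with a median log2 difference of 0.14 (0.11 without WT3). Among the 6 thalamic genes tested, 5 were higher and 1 lower, with a median of 0.13 (0.02 without WT3). The part of such tissue in the levels of Dlx1, Dlx6os1 and Lhx6 was not tested.

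The genes whose profile over the 6 libraries was most like the mean deviation of the 9 members were Gnao1 (r = 0.994), Ppp2r5b (r = 0.993) and Atg13 (r = 0.991), the highest of 13316 genes. The mean member profile, in log2 units from the WT mean, was 0.06, 0.04 and -0.09 for the WT libraries and 0.16, -0.08 and 0.08 for the TG libraries. These 3 genes therefore shared the low WT3 and TG2 and the high TG1, and Gnao1, a G-protein subunit of neurons, measured 57.5 to 61.5 FPKM in WT and 57.4 to 64.3 FPKM in TG mice. With r chosen as the highest of so many genes, it is a description only.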

How the data were processed

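Hippocampal RNA of 3 WT and 3 TG mice was sequenced. The authors counted reads per gene with HTSeq and deposited FPKM, computed from the read count and gene length, for each library without pooling. The build was named as GRCm38 (mm10) in the submitters' processing notes, and the aligner is not given in the sources used here. Trizol and NEBNext are given in the methods, RNeasy and SMARTer kits in the labels. Strand and the handling of multiply mapped reads are not stated. Multiplied by gene length, 100% of values were whole multiples of 1 read (tolerance 0.05), which gave the reads. Counting errors and depth limits (3 reads on 1 kb are 0.160 to 0.190 FPKM) cover counting only, since the reads carry no molecular identifiers and copies of 1 molecule count apart.

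Of 54532 genes, 30589 were above 0, and the 20952 that averaged 0.1 FPKM or more were tested with limma 3.58.1 (R 4.3.3, lmFit, eBayes with trend) on log2(FPKM + 0.1), 3 against 3, with Benjamini-Hochberg adjustment over all genes. Fold changes on this scale understate those of low genes. The p-values measure the spread between these 6 samples, labelled as separate mice. Alternatives changed the pseudocount, filter, scaling, variance model, reads (voom), replicate block, a choroid plexus covariate and single libraries, and a gene length correction was added after seeing the data. On simulated libraries with 193 of 20468 tested genes changed 2-fold, 54.4% were recovered, and 15 unchanged genes were called. The simulation gave every gene the same dispersion and held no trend with gene length and no choroid plexus shift. It therefore does not give the share that would be recovered in these data. Named were all 9 members, of the genes that overlap them those sharing exonic bases and above 0.1 FPKM in a library, plus Dlx6, in each interneuron list the most abundant gene and that of smallest p, and the 3 genes most like the mean member profile. Results of some genes that this rule names are not reported here. Lists were written by hand. Members and lists were chosen with earlier results of these data known. Gene positions came from GENCODE M21 (GRCm38), where all 10 entries had the exonic length in the table, and promoters from RefSeq (GRCm38.p6). Scripts ran in Python 3.11.15 with numpy 2.4.6, pandas 2.3.3 and matplotlib 3.10.9.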

Additional observations from a re-analysis of the deposited data

How the results depend on the processing

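No member passed an unadjusted p of 0.05 in any of the 17 alternatives, where the smallest was 0.075 (Erbb4), and the direction was kept in all 17 for Erbb4, Lhx6, Dlx6os1 and Sox6. Pvalb reversed with the choroid plexus covariate (0.0875), and ranged from -0.266 to 0.0849 when 1 library was left out, positive only without WT3. Ndnf reversed with that covariate (0.0129), and ranged from -0.166 to 0.0266, positive only without TG2. Leaving out 1 library gave -0.0520 to 0.321 for Nos1, negative only without WT3, and -0.00529 to 0.0767 for Dlx1, negative only without TG3. The other ranges with 1 library left out were 0.05 to 0.17 for Erbb4, 0.05 to 0.28 for Lhx6, 0.00341 to 0.23 for Reln, -0.27 to -0.11 for Dlx6os1 and 0.11 to 0.36 for Sox6, and 0.02 to 0.17 for the median of the 9. Reln was -0.0101 under the gene length correction, chosen after seeing the data. Over all genes, the 2 genes with an adjusted p under 0.05 became 0 with a pseudocount of 0.01 or 1, no filter, limma-voom, the replicate block, the choroid plexus covariate or the length correction, 1 with a mean FPKM of at least 1, 9 without the trend, and 0 to 6 with 1 library left out (6 without TG1). The covariate left 332 genes higher and 370 lower at an unadjusted p of 0.05. The further interneuron genes at that threshold went from 2 to 4 under the replicate block, the covariate and the length correction, and from 1 to 4 with 1 library left out (1 without WT2 or TG3, 4 without WT1). The replicate block gave 0 of 9 members, as without it, with a median of 0.10. Same-numbered WT and TG libraries had r of 0.013, 0.043 and 0.003 over genes, and the other WT and TG libraries -0.027 to 0.016. With 3 libraries per group, r this small cannot tell whether the numbers pair them. The cause of the differences between libraries was not tested. With 3 mice per group the intervals of the members allow folds between 0.654 and 1.59, and cell numbers were not measured.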
